A study of Homo sapiens with 2 samples.

Results

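Developmental regulators and negative regulators of Wnt signaling formed a group of 8 genes among the 84 genes of a qPCR array for prostate cancer. They were taken by name and transcript accession from the deposited tables: MSX1 (NM_002448), SOX4 (NM_003107), EGR3 (NM_004430), RARB (NM_000965), EDNRB (NM_000115), SFRP1 (NM_003012), DKK3 (NM_015881) and APC (NM_000038). All 8 were found in both tables, and the rule names genes and uses no threshold on a value, although earlier results of these data were known when it was written. By its labels, the series assayed LNCaP, a widely used line from a human prostate cancer, once as control and once as BMI1-silenced cells. Each of these samples was a pool of equal RNA amounts from its group, which leaves no replicate, no test and no measure of how far cultures vary. The labels name siRNA as the silencing agent. The methods name an shRNA plasmid instead, with the empty plasmid as control in their reporter assay. The methods state that transfection did not reach every LNCaP cell. BMI1 had 0 assays on the array, so the silencing cannot be read from these data.

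BMI1 is a subunit of a Polycomb repressive complex, which marks histones and keeps developmental genes silent. Genes for homeobox, SOX and other transcription factors of the embryo are the textbook targets of this complex, and many have promoters rich in CpG dinucleotides. The Wnt pathway stabilises beta-catenin, which joins TCF/LEF factors on DNA and turns on growth genes. SFRP1 and DKK3, both counted here as Wnt antagonists, are secreted and act outside the cell. APC acts inside it as part of the complex that destroys beta-catenin. The comparison asks how the RNA of these genes differed when BMI1, which the study linked to TCF-driven transcription, was silenced.

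Set against 5 reference genes, 6 members of the group of 8 were higher by at least 2-fold after BMI1 silencing, 0 were lower by that much, and APC and RARB were within 2-fold. Over the whole array, 34.9% of the 83 genes that could be compared were at least 2-fold higher and 19.3% at least 2-fold lower. EGR3 stood 24.6-fold higher, DKK3 7.84-fold, SOX4 5.05-fold and MSX1 2.09-fold, while EDNRB was at least 6.44-fold and SFRP1 at least 4.76-fold higher. At a threshold of 4-fold, the 5 genes other than MSX1, APC and RARB were higher, where 21.7% of the array was. These directions hold for the assignment of samples in the authors' normalized table. The raw threshold cycles (Ct) under their own column names gave the opposite direction for all 8 genes. On the authors' normalized values with no further reference, 3 of the 8 genes were at least 2-fold higher and 2 at least 2-fold lower, where 14.5% and 62.7% of the genes on the array were.

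The upstream sequences of the members show how differently built the promoters of this group are. Windows from RefSeq (GRCh38.p14) were used for 5 of the 8 genes, with 10 start sites in all. None was used for DKK3, EGR3 and SFRP1, which are named only. Their absence here does not mean that RefSeq lacks start sites for them. The sequences cover the 250 bases before a start site, 5′ to 3′ on the strand of the gene. Those of MSX1 (chr4:4859415-4859664, plus strand), SOX4 (chr6:21593501-21593750, plus strand) and EDNRB (chr13:77918832-77919081, minus strand, 1 of its 2 start sites) belong to genes that were higher. That of APC (chr5:112707248-112707497, plus strand, 1 of its 2 start sites) belongs to a gene within 2-fold. Capitals mark CpG dinucleotides, the sites of DNA methylation.
MSX1: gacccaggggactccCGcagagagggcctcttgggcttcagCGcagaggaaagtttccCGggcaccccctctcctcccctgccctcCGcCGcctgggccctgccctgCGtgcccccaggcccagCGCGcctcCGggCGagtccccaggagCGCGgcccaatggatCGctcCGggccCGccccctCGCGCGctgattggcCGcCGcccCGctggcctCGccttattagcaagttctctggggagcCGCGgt
SOX4: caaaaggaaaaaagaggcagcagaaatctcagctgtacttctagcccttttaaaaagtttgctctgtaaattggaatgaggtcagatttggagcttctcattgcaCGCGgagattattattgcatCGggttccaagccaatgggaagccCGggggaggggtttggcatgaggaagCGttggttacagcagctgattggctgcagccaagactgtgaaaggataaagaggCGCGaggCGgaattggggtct
EDNRB: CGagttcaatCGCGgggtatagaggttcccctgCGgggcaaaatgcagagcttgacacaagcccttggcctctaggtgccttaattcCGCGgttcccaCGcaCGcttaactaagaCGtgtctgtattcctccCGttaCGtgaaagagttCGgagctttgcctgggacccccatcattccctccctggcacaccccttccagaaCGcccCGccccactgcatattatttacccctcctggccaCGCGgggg
APC: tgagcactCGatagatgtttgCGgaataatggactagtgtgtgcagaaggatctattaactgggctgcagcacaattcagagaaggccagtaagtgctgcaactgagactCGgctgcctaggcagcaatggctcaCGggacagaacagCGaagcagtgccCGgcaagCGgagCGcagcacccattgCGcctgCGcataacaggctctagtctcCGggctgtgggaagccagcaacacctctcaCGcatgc
MSX1 held 24 CpG in this stretch, EDNRB 16, APC 12 and SOX4 8, against a median of 11 over 35116 windows of all genes and 17 over 105 windows of genes on the array. The other start site of EDNRB had 9 CpG and that of APC 21. The 4 start sites of RARB had 28, 1, 7 and 1. SOX4, with 8, had a log2 change of 2.34 and MSX1, with 24, one of 1.06. The count of a gene depends on the start site taken, and a link between CpG number and change was not tested.

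RARB codes for retinoic acid receptor beta, a nuclear receptor that retinoic acid activates and that is known to be induced by retinoic acid through its own promoter. The sequence before 1 of its 4 start sites (chr3:25428013-25428262, plus strand) is shown for a repeated stretch of bases. Capitals mark a direct repeat of the string GTTCAC, with 5 bases between the copies. The string is the one searched and is not a consensus for retinoid receptor sites.
RARB: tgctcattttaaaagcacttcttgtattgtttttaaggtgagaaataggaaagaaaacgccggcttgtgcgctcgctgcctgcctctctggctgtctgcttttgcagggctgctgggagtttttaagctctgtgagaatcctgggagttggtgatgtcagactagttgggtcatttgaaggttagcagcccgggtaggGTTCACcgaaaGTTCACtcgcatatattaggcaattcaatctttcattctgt
The repeat begins 52 bases before the start site. It was searched in this exact form on both strands, after the windows had been seen. The repeat was in 4 of the 35116 windows (0.0114%) and in 1 of the 105 windows of the array. Other forms of a retinoid site were not searched. The TCF/LEF core, searched as CTTTGAT and CTTTGTT on both strands, was in 1 of the 10 windows of the group, before another start site of RARB. These windows leave out DKK3, EGR3 and SFRP1, so the count does not describe all 8 genes. Among all windows 6.60% held it, and among those of the array 3.81%. A match is a sequence of letters and says nothing of binding in these cells.

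The authors' normalized values are 2^-Delta Ct ratios, in which a Ct above 32 had been set to 32, and a Ct earlier by 1 cycle means at most a doubling of the template. The ceiling corresponds to 0.0489 on this scale in control and 0.0403 in BMI1-silenced cells. In control cells 9 of the 84 genes stood at this ceiling, among them EDNRB and SFRP1, and in BMI1-silenced cells 2 genes did, with 0 of the 8 described here. All 5 reference genes were lower in BMI1-silenced cells on this scale, from 1.96-fold for GAPDH to 4.63-fold for HPRT1, with a mean log2 ratio of -1.68 ± 0.47 (SD, n = 5 genes). This mean was subtracted from each log2 ratio, and the SD of 0.47 serves as a yardstick between genes, not between cultures. The median of the 83 genes was 0.20 after that step and -1.48 before it. KLK3 and TMPRSS2 are markers of the luminal prostate cells that LNCaP resembles. KLK3 (prostate-specific antigen), for whose high expression LNCaP is known, was not detected under Ct 32 in control cells and was at 0.197 in BMI1-silenced cells. A defining marker of the line was thus absent at that limit from the sample that the normalized values assign to control. Its raw Ct was 29.7 in the column named for control and 34.2 in that named for BMI1-silenced cells. Which sample lacked KLK3 under Ct 32 therefore depends on that assignment. TMPRSS2 had a Ct under 32 in both samples (0.713 and 0.653). Relative to the reference genes the log2 change was at least 3.69 for KLK3 and 1.55 for TMPRSS2. Their part in the results was not tested, and fewer cells of a type cannot be told apart from less RNA per cell.

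**Figure D1:**
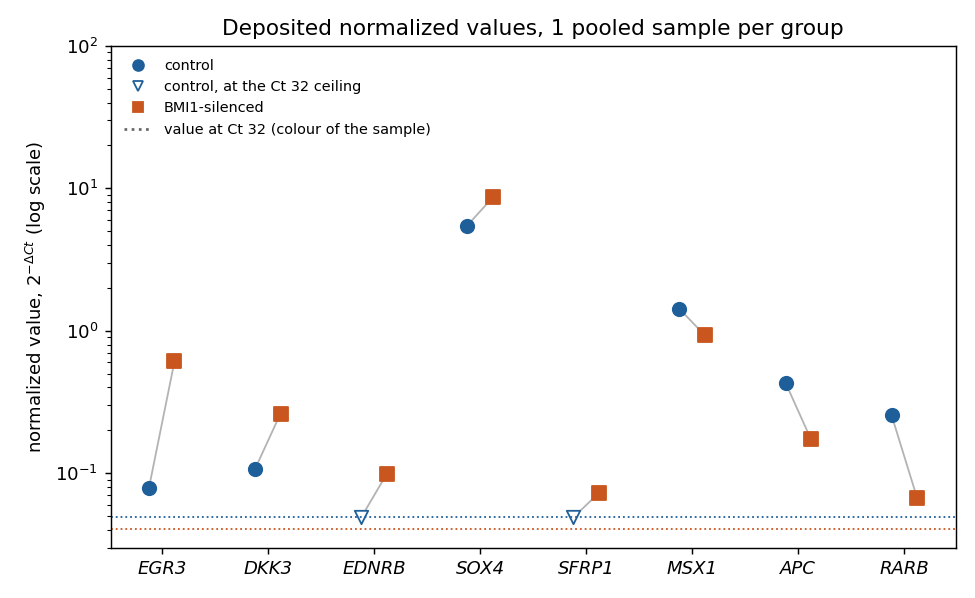
Normalized values (2^-Delta Ct, log scale) of the 8 genes, ordered by log2 change, in the single control (circles) and BMI1-silenced (squares) sample. Dotted lines give the value at the Ct ceiling of 32 in the sample of the same colour. EDNRB and SFRP1 lie on that line in control cells (open triangles), and MSX1, APC and RARB have the lower value in BMI1-silenced cells before the reference genes are taken into account.

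The secreted Wnt antagonists were both low in control cells. SFRP1, which binds Wnt proteins and their Frizzled receptors, stood at the ceiling (0.0489) in control cells and at 0.0727 after silencing. Its log2 change was at least 2.25. DKK3, a member of the Dickkopf family often silenced in prostate tumors, went from 0.107 to 0.262, a log2 change of 2.97, and was under the ceiling in both samples. The Ct values behind these numbers were 30.9 and 29.3 for DKK3, and 31.1 for SFRP1 in BMI1-silenced cells, so SFRP1 lay less than 1 cycle from the ceiling where it was measured.

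APC did not follow the secreted antagonists. Its normalized value went from 0.431 in control to 0.173 in BMI1-silenced cells, which as deposited is a log2 ratio of -1.32. Relative to the reference genes the log2 change was 0.36, below the spread of 0.47 of those genes. With GAPDH alone as the reference it was -0.35, and with HPRT1 alone 0.89, so no direction can be given for APC. DKK3 and SFRP1 were at least 2-fold higher with each single reference gene.

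Of the 37 genes on a list of the Wnt pathway and its textbook targets, 5 were on the array, namely these 3 and 2 targets. CCND1, which codes for cyclin D1 and drives entry into the cell cycle, had normalized values of 156 and 0.904, a log2 change of -5.75. PTGS2, which codes for cyclooxygenase-2, had 0.827 and 0.151, a log2 change of -0.78, within 2-fold. The list thus held 2 genes at least 2-fold higher (SFRP1 and DKK3), 1 at least 2-fold lower (CCND1) and 2 within 2-fold. On the array 34.9% were higher and 19.3% lower. For only 5 genes these counts lie near the shares of the array, and they give no result about the Wnt pathway. As deposited, 1 of the 5 was at least 2-fold higher (DKK3), 3 were lower (APC, CCND1 and PTGS2) and SFRP1, a bound, was at least 1.49-fold higher. The array had no assay for Wnt ligands, Frizzled receptors, beta-catenin or TCF/LEF factors from the list.

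Among the transcription factors, EGR3 had the highest log2 change, and the highest of the group when the bounds of EDNRB and SFRP1 were taken at their value. EGR3 is an immediate early zinc finger factor that growth signals induce. Its normalized value was 0.0792 in control and 0.609 in BMI1-silenced cells, and the log2 change of 4.62 ranked 4 of the 83 genes on the array when bounds were taken at their value. EGR3 lay 1.65 above DKK3, the next of the 6 genes under the ceiling in both samples, a gap wider than the spread of the reference genes. Its Ct was 31.3 in control cells, close to the ceiling but measured.

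SOX4, an HMG-box factor of progenitor cells that is often abundant in prostate tumors, gave the lowest Ct of the 8 assays in both samples, 25.2 in control and 24.3 in BMI1-silenced cells. On the normalized scale it went from 5.48 to 8.64 with silencing, and the log2 change was 2.34. SOX4 thus reached its 5.05-fold change far from the ceiling, where EGR3, DKK3, EDNRB and SFRP1 lay near or on it in control cells. As deposited, its log2 ratio was 0.66, within 2-fold.

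MSX1, a homeobox repressor of differentiation in the embryo, was the member closest to the threshold. Its normalized value went from 1.42 to 0.928 with silencing, lower by 1.54-fold as deposited. Against the larger fall of the reference genes this gave a log2 change of 1.06, just past 2-fold. With B2M alone as the reference it was 0.89 and with GAPDH alone 0.35, both within 2-fold, so the call for MSX1 rests on the choice of reference.

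**Figure D2:**
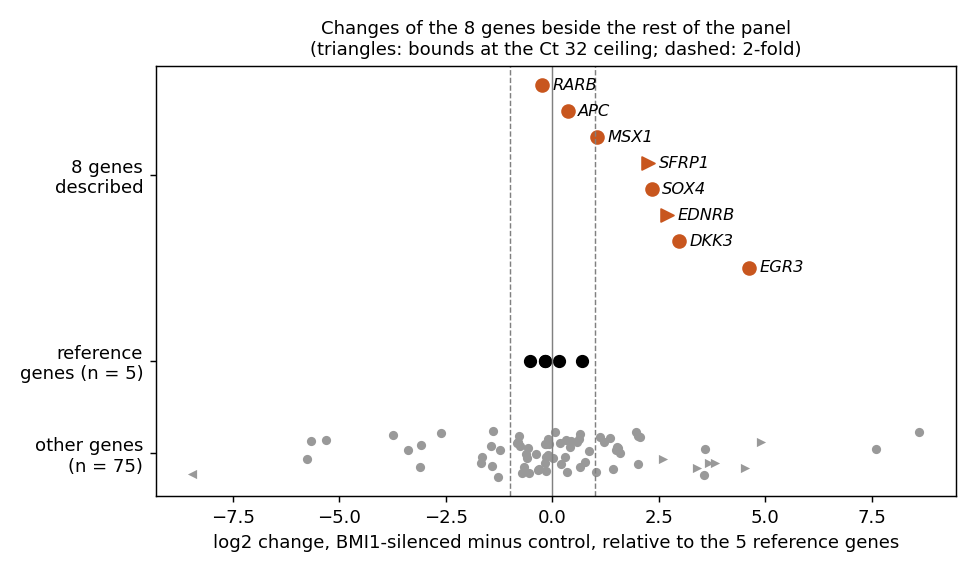
Log2 change (BMI1-silenced minus control, with the mean of the 5 reference genes at 0) for the 8 genes, for the reference genes and for the other 75 genes that could be compared, whose vertical scatter carries no value. Right-pointing triangles are lower bounds and the left-pointing triangle an upper bound at the Ct ceiling of 32. Of the 8 genes, EGR3 at 4.62 is plotted farthest to the right, and RARB at -0.24 lies left of zero.

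The receptors of the group differed from each other. EDNRB codes for the endothelin receptor type B, a G protein-coupled receptor of neural crest cells and vessels that clears endothelin and is often silenced in prostate cancer. EDNRB was at the ceiling of 0.0489 in control cells and at 0.0985 after silencing, so its log2 change was at least 2.69. RARB went the other way, from 0.254 to 0.0671, and was 3.79-fold lower as deposited. Relative to the reference genes its log2 change was -0.24, within their spread, and with HPRT1 alone it was 0.29. RARB thus had no settled direction. EDNRB and RARB were the 2 genes on the array from a list of 18 genes of retinoid and endothelin signaling, so their ligands and partner receptors could not be compared.

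In the order of log2 changes, with bounds taken at their value, EGR3 came first, followed by DKK3, EDNRB, SOX4 and SFRP1, then MSX1, APC and RARB. The gaps between neighbours from DKK3 to SFRP1 were 0.28, 0.35 and 0.09, each under the spread of 0.47. Since EDNRB and SFRP1 are lower bounds, their place in the order is not known. The gaps from SFRP1 to MSX1 (1.19), MSX1 to APC (0.70) and APC to RARB (0.60) were wider than that spread. The median of the 8 genes was at least 2.29, beside 0.20 for all 83 genes. As deposited it was at least 0.61, beside -1.48.

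**Figure D3:**
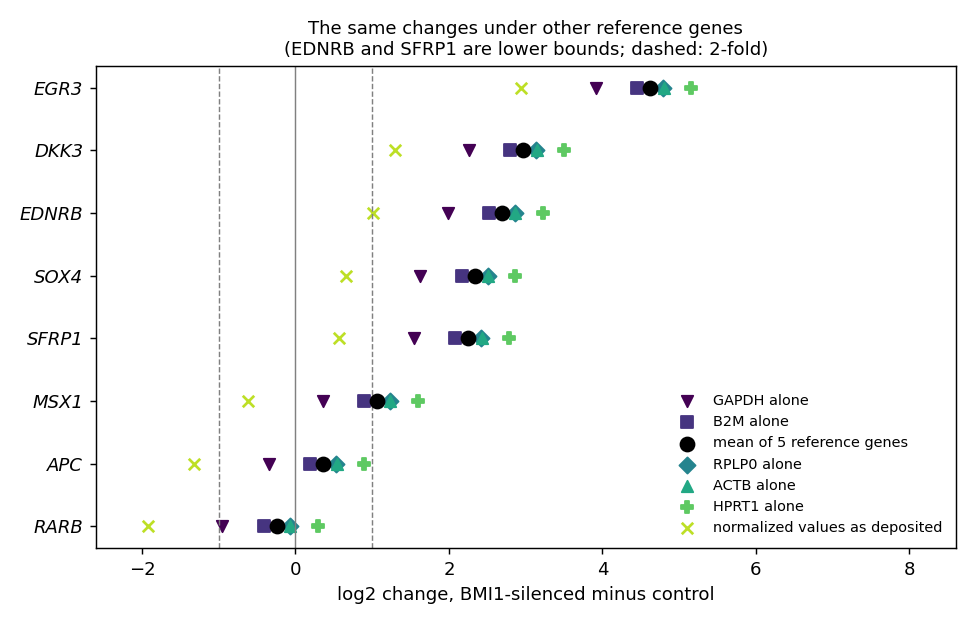
Log2 change of each of the 8 genes with the mean of the 5 reference genes (black circles), with each reference gene alone, and with the normalized values as deposited (crosses). Each choice shifts all genes by the same amount. EGR3, DKK3, EDNRB, SOX4 and SFRP1 stay at or beyond 1.54 with every single reference gene, whereas MSX1 drops to 0.35 and APC to -0.35 with GAPDH alone.

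The raw Ct values allowed each member to be checked. The normalized values went with the raw Ct values of the opposite column for 8 of the 8 genes and 90 of the 96 wells, to within 0.001 cycles, once a raw Ct above 32 was set to 32. Without that step 6 of the 8 genes matched, all but EDNRB and SFRP1, and with the columns as named 0 of 8 did. For SOX4 the raw Ct was 24.3 in the column named for control and 25.2 in that named for BMI1-silenced cells. For EGR3 these values were 28.1 and 31.3, for DKK3 29.3 and 30.9, and for MSX1 27.5 and 27.1. RARB had 31.3 and 29.6, and APC 29.9 and 28.9. Taken under these names and before any reference, SOX4, EGR3 and DKK3 had more template in control cells, and MSX1, RARB and APC less. Relative to the reference genes, MSX1 was also lower in BMI1-silenced cells under these names, with a log2 change of -1.06. APC (-0.36) and RARB (0.24) stayed within the spread of those genes. The tables alone do not settle which column belongs to which cells.

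The raw table also holds the cycles that the ceiling hides. EDNRB had a raw Ct of 30.7 and 35.2, and SFRP1 31.1 and 34.0, in the columns named for control and BMI1-silenced cells. With the columns exchanged and no ceiling, the log2 change was 5.88 for EDNRB and 4.26 for SFRP1, against bounds of 2.69 and 2.25. EDNRB would then stand above EGR3, and SFRP1 above DKK3. The genomic DNA control well had a raw Ct of 41.9 and 44.6, later than these wells. The other 6 genes kept their values, since their Ct was under 32 in both columns.

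**Figure D4:**
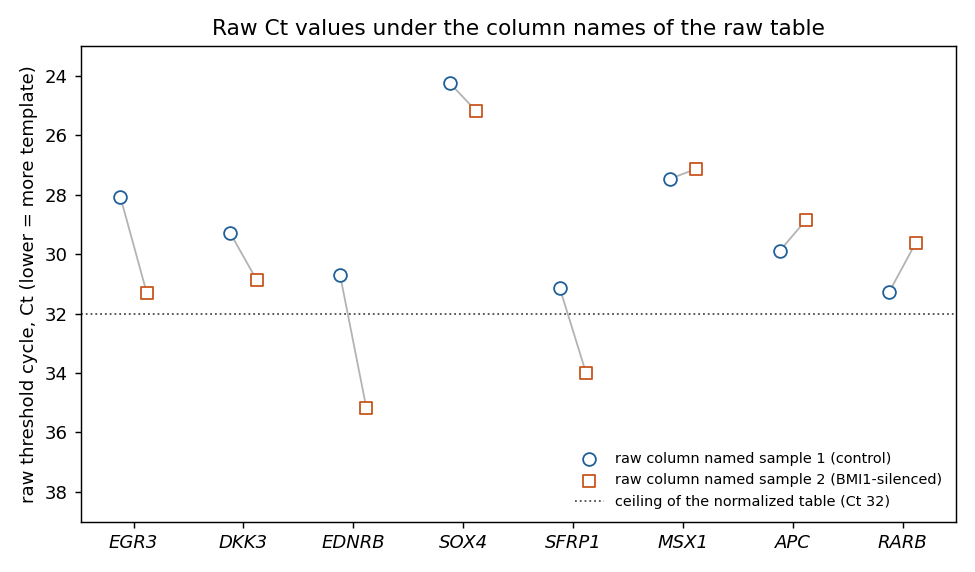
Raw Ct of the 8 genes in the raw table's columns as named there, with more template towards the top. The dotted line is the ceiling of 32 used in the normalized table. EDNRB at 35.2 and SFRP1 at 34.0 lie beyond it in the raw column named sample 2, and these go with the control values of the normalized table.

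For each member under the ceiling, the gene with the most similar pair of normalized values was sought among 73 others, by distance on the log2 scale over the 2 samples. MSX1 lay nearest to TGFB1I1 (1.52 in control and 1.04 in BMI1-silenced cells), at a distance of 0.18. SOX4 lay nearest to PDLIM4 (4.91 and 6.44), at 0.45. EGR3 lay nearest to GPX3 (0.157 and 0.580), at 0.99, and APC to Cyclin A1 (0.680 and 0.244), at 0.83. DKK3 and RARB were both nearest to FOXO1 (0.151 and 0.134), at 1.09 and 1.25, although the log2 change of FOXO1 was 1.51, that of DKK3 2.97 and that of RARB -0.24. Of the 6 genes, MSX1 and SOX4 had the closest neighbours.

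MSX1, RARB, EDNRB, SFRP1, DKK3 and APC are on a list of 33 genes known for promoter methylation in prostate cancer, of which 27 were on the array. Of these 6 genes, 4 were at least 2-fold higher, with a median log2 change of at least 1.66, where 34.9% of the array was higher and 19.3% lower. The 2 members not on the list, EGR3 and SOX4, were both at least 2-fold higher, with a median of 3.48. As deposited, EDNRB (at least 1.01) and DKK3 (1.29) were at least 2-fold higher, and RARB (-1.92) and APC (-1.32) at least 2-fold lower. MSX1 was within 2-fold, and SFRP1, a bound, was at least 1.49-fold higher. On that scale 14.5% of the array was higher and 62.7% lower. Of the other 21 genes of the list, 9 were at least 2-fold higher, 2 at least 2-fold lower and 10 within 2-fold, with a median of 0.20, the same as that of the whole array. As deposited, 5 of the 21 were at least 2-fold higher and 12 lower, with a median of -1.48. The normalized values of 3 of these 21 genes could not be matched to their raw Ct. Methylation was not measured in these samples.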

How the data were processed

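Total RNA (1 microgram) was reverse transcribed and measured by SYBR Green PCR of 45 cycles on a 96-well panel, read with the vendor's software. The authors deposited normalized values, a ratio (2^-Delta Ct) of each gene to a reference, and raw Ct values per well. The normalized values fit 1 reference Ct per sample (27.6 for control, 27.4 for BMI1-silenced cells) and a ceiling of Ct 32. Another table, of the authors' fold changes, was not used beyond its header, which sets sample 2 as test over sample 1 as control and, with the labels, gave the columns.

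The log2 ratio of BMI1-silenced over control was taken from the normalized values, minus its mean over ACTB, B2M, GAPDH, HPRT1 and RPLP0. Genes at the ceiling in 1 sample are bounds, and the 1 gene at it in both was not compared. The threshold of 2-fold is that of the study. Named genes are the members, the reference genes, the gene nearest each member, the Wnt targets and markers of the line. The members and lists were chosen with earlier results of these data known. Alternatives changed the reference, the ceiling, the threshold or the table. Accessions gave RefSeq symbols (GRCh38.p14) for 88 of 89 genes, and Cyclin A1 keeps its description. The files name no build. Values of some other genes are not given here. The script was first run on simulated Ct values. Python 3.11.15, numpy 2.4.6 and matplotlib 3.10.9 were used.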

Additional observations from a re-analysis of the deposited data

How the results depend on the processing

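No paired analysis was possible because a group holds a single pooled sample, and no setting shows how far cultures vary. A gene was held to have moved past 0.47, a median past 0.1 and a count past 1.5 times.

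With ACTB, B2M or RPLP0 alone, or the median of the array, as the reference, all 8 genes stayed within that limit, although MSX1 (0.89 with B2M) no longer reached 2-fold. The median of the 8 genes was 2.47, 2.12 and 2.46 with the single genes. With GAPDH alone it was 1.59 and with HPRT1 alone 2.82, and all 8 genes moved by 1 common shift, which is the cause by construction. MSX1 (0.35) was within 2-fold with GAPDH. With no further reference the median was 0.61, 3 genes were at least 2-fold higher and 2 lower, and MSX1 changed sign (-0.62). With the 6 genes that had a Ct under 30 in at least 1 sample the median was 1.70. EGR3 and DKK3 passed this limit only in BMI1-silenced cells and RARB only in control cells. The setting is thus no check on their changes, since each was kept through the sample where it was higher. At 4-fold, 5 of the 8 genes were higher, where 21.7% of the array was, and at 1.5-fold the counts stayed as they were.

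With the raw Ct columns as named, 0 genes were at least 2-fold higher and 6 lower, at the ceiling of 32 and with no ceiling, where 16 genes of the array were higher and 31 lower. The median was -2.29 and -2.65. The log2 change was -1.06 for MSX1, -2.34 for SOX4, -4.62 for EGR3 and -2.97 for DKK3 in both settings, and -2.69 and -5.88 for EDNRB and -2.25 and -4.26 for SFRP1. By construction, taking the columns as named turns every sign. With the columns exchanged the 8 genes kept their values at the ceiling of 32. At a ceiling of 35 and with none, EDNRB (5.69 and 5.88) and SFRP1 (4.26 in both) moved, and the median was 2.65 in both.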
